A study of Mus musculus with 12 samples.

Results

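Voltage-gated calcium channels are described here by 10 of the 15759 rows of a table of normalized counts per gene, chosen by gene symbol: the pore subunits of the P/Q class (Cacna1a), the N class (Cacna1b), the L class (Cacna1c and Cacna1d), the R class (Cacna1e) and the T class (Cacna1g, Cacna1h and Cacna1i), and the beta subunits Cacnb2 and Cacnb4. All 10 rows were found, and all 10 passed the filter on low values. RNA sequencing of macrodissected cortex and cerebellum was compared between SCA1 KI mice and WT littermates at 12 weeks of age, on a C57BL/6J background, with 3 libraries in each of the 4 groups. SCA1 KI mice model spinocerebellar ataxia type 1. They carry 154 glutamine codons in 1 allele of Atxn1 and 2 in the other, expressed from the gene's own promoter in every cell that uses it, and no other allele or treatment is given for any group. The labels list male mice, whereas the study's methods give males and females together. The cerebellum data had been published before by the same laboratory, so brain region and sequencing experiment cannot be told apart.

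A voltage-gated calcium channel opens when the membrane depolarizes and lets calcium into the cell. Its pore is 1 large protein with repeated domains, and beta subunits bind high-voltage-activated pores from inside and raise the number of channels at the surface. P/Q-type and N-type channels trigger transmitter release and P/Q-type channels carry most of the calcium current of Purkinje cells, L-type channels couple activity to transcription, and T-type channels open near rest and shape burst firing. The T-type pores work without a beta subunit.

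Letters that set the T-type pores apart from the other classes lie in the pore. Below is the coding stretch around the selectivity filter of the last pore domain in the 8 pore subunits, each 27 bases long, read 5′ to 3′ on the coding strand from GENCODE vM21 transcripts on GRCm38, with the codon of the calcium-binding acidic residue in capitals. It is shown because it marks the division between T-type and high-voltage-activated pores by which the members are grouped.
Cacna1a: agcgccacaggaGAAgcgtggcacaac
Cacna1b: agtgccactgggGAGgcctggcatgag
Cacna1c: tgtgccaccggaGAGgcctggcaggac
Cacna1d: tgtgcaacagggGAAgcctggcaggag
Cacna1e: agtgccacggggGAGgcttggcaggag
Cacna1g: gtctccactggtGACaactggaatggt
Cacna1h: gtgtccactgggGACaactggaatggg
Cacna1i: gtctccacaggcGATaactggaatggg
In the high-voltage-activated pores, Cacna1a to Cacna1e, the capital codon was GAA or GAG, which encode glutamate. In the T-type pores, Cacna1g, Cacna1h and Cacna1i, it was GAC or GAT, which encode aspartate. Each stretch lay within 1 coding exon, at chr8:84611599-84611625 in Cacna1a, chr2:24635213-24635239 in Cacna1b, chr6:118614050-118614076 in Cacna1c, chr14:30075944-30075970 in Cacna1d, chr1:154425975-154426001 in Cacna1e, chr11:94416415-94416441 in Cacna1g, chr17:25377771-25377797 in Cacna1h and chr15:80388485-80388511 in Cacna1i. Cacna1a and Cacna1i lie on the plus strand and the other 6 on the minus strand. Counts per gene do not resolve transcripts, so the values below sum over all isoforms of each gene.

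The libraries held between 29520855 and 51311309 reads on genes, and each member had at least 133 normalized counts in every library. The defining markers fitted the labelled regions. Neurod6, a transcription factor of excitatory forebrain neurons, lay between 2638 and 4173 normalized counts in the 6 cortex libraries and between 262 and 325 in the 6 cerebellum libraries, and Pcp2, a Purkinje cell gene, lay between 7439 and 10742 in the cerebellum and between 0 and 28.5 in the cortex. SCA1 KI cortex library A and WT cerebellum library 2 stood apart from the other libraries of their groups. Their chi-square per gene was at least 33.5 and 21.5, against 10.5 and 9.70 between the other 2 libraries. The genotype differences called in the members within a region are therefore given with and without whichever of them belongs to that region. Lists of other genes and marker sums are given with all libraries. Atxn1 itself was not called in either region, with 7370 ± 815 (SD, n = 3) normalized counts in WT cortex and 6040 ± 1337 (SD, n = 3) in SCA1 KI cortex (adjusted p = 0.132, limma), and a count per gene does not measure the repeat.

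In WT tissue, Cacnb4 had the highest level of the 10 genes in both regions, and the pore subunits that followed it differed between the regions. Levels were compared between genes as normalized counts per kb of the union of annotated exons. In WT cortex, Cacnb4 had 2375 ± 189 (SD, n = 3) per kb, followed by Cacna1a with 884 ± 82.9, Cacna1b with 681 ± 40.8 and Cacna1i with 671 ± 8.87. Cacna1b and Cacna1i overlapped, as did Cacna1g (399 ± 30.0) with Cacna1e (366 ± 65.9) and, below them, each of Cacna1c (214 ± 36.9), Cacna1d (191 ± 16.5), Cacna1h (172 ± 28.1) and Cacnb2 (140 ± 6.18) with its neighbour in this order. In WT cerebellum, Cacnb4 had 2791 ± 383 per kb, and Cacna1a (1545 ± 227) and Cacna1g (1506 ± 133) followed with overlapping libraries, both far above Cacna1i (422, with libraries from 404 to 453). Cacna1h was the lowest there at 37.1 ± 12.3 per kb. The lower end of this order depended on which length was used, since Cacnb2 reached 367 per kb in WT cortex with the length of its longest transcript.

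Summed over classes, T-type pores made up the largest share of the pore total in both WT regions. They were 34.8% ± 1.28 (SD, n = 3) of the per-kb pore total in WT cortex and 43.4% ± 1.17 in WT cerebellum. The P/Q class, Cacna1a alone, was 24.7% ± 0.488 in WT cortex and 33.9% ± 1.97 in WT cerebellum. The N class, Cacna1b alone, was 19.1% ± 1.33 in WT cortex and 7.02% ± 0.280 in WT cerebellum. The pore total was 3579 ± 281 per kb in WT cortex, 2790 ± 317 in SCA1 KI cortex, 4537 ± 424 in WT cerebellum and 4621 ± 229 in SCA1 KI cerebellum. In SCA1 KI cortex the T-type share was 31.0% ± 1.85, its 3 libraries (29.7% to 33.1%) lying below the 3 WT libraries (33.3% to 35.8%). Per kb of the longest transcript the T-type shares overlapped, at 26.4% to 29.0% in SCA1 KI and 28.6% to 31.0% in WT cortex. The L-type share per kb of exon was 13.5% ± 1.02 in SCA1 KI cortex against 11.3% ± 0.622 in WT. The N-type share was 23.1% ± 2.73 in SCA1 KI cortex against 19.1% ± 1.33 in WT, with overlapping libraries, and the P/Q share 22.3% to 23.8% against 24.1% to 25.0%, with libraries apart. In SCA1 KI cerebellum the T-type share was 38.0% ± 0.262 and the L-type share 10.6% ± 0.149 against 8.66% ± 0.476 in WT. In SCA1 KI cerebellum the P/Q class and not the T class was largest when the length of the longest transcript was used (38.1% and 33.2%). With that length the T-type and P/Q shares overlapped in WT cerebellum, at 37.6% to 39.8% and 34.9% to 38.5%. The shares are given as a description and were not tested. An exact permutation test of 3 libraries against 3 cannot give a two-sided p under 0.1.

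**Figure D1:**
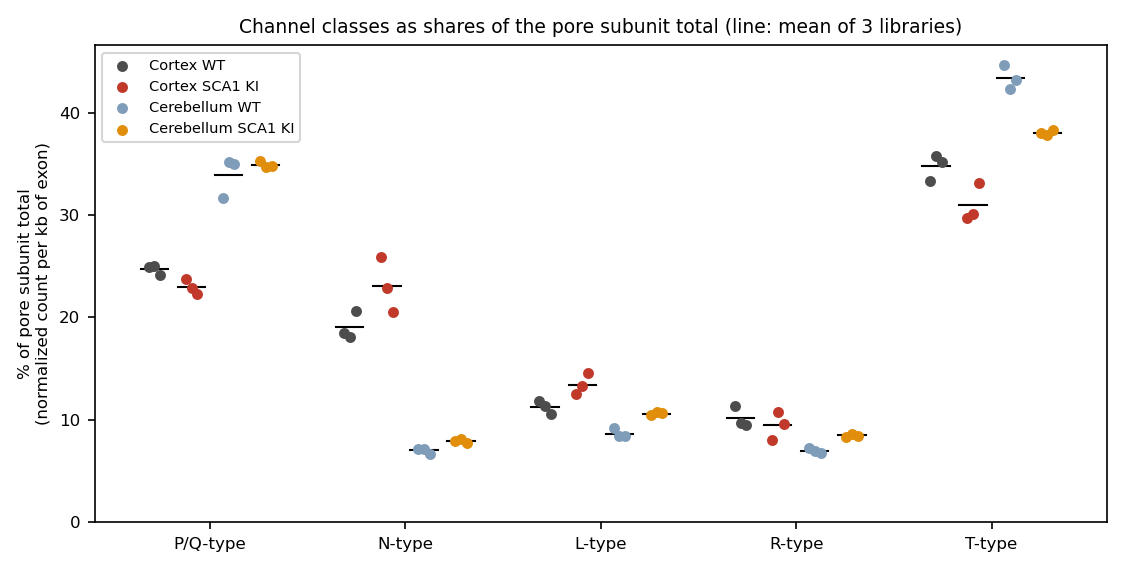
Share of each channel class (x axis) in the summed pore subunit level of a library (y axis, % of normalized counts per kb of exon); points are libraries, colours the 4 groups and black lines the means of 3 libraries. T-type is the largest class in every group (31.0% to 43.4%) per kb of exon, though not in SCA1 KI cerebellum per kb of the longest transcript, and the N class stands at 19.1% to 23.1% in the cortex and at 7.02% to 7.94% in the cerebellum.

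Between the WT regions, 3 members were lower in the cortex than in the cerebellum and 3 were higher (limma, adjusted p under 0.05 and a log2 fold change, LFC, beyond 0.25 in size). Of all tested genes, 30.7% were lower and 31% higher by the same rule, 61.7% in all. Cacna1g (chr11:94408391-94474198) was lower in the cortex, at 4188, 4243 and 3691 normalized counts against 13742, 15797 and 16273 in the cerebellum (LFC −1.92 ± 0.082 SE, adjusted p = 5.05e-10). Cacna1a was lower as well (LFC −0.80 ± 0.11 SE, adjusted p = 2.56e-05), as was Cacnb2 (LFC −0.28 ± 0.069 SE, adjusted p = 0.00275). Cacna1h was higher in the cortex (LFC 2.25 ± 0.23 SE, adjusted p = 1.85e-06), and so were Cacna1b (LFC 1.10 ± 0.086 SE, adjusted p = 1.47e-07) and Cacna1i (LFC 0.67 ± 0.092 SE, adjusted p = 2.81e-05). Cacnb4 missed the threshold (LFC −0.23 ± 0.096 SE, adjusted p = 0.0507, and 0.00894 to 0.0628 across the settings with all 12 libraries). It passed without WT cerebellum library 2 (LFC −0.32, adjusted p = 0.00843) and without WT cortex library C (LFC −0.29, adjusted p = 0.0277). Cacna1c, Cacna1d and Cacna1e did not pass, with LFC between −0.11 and 0.20. The members that differed most between the regions were both of the T class, in opposite directions.

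In SCA1 KI cortex, 3 of the 10 members fell and none rose. They were Cacna1i, Cacnb4 and Cacna1a, at 56.0%, 70.5% and 72.3% of their mean WT count. Of all 15369 genes tested, 10.8% were lower in SCA1 KI cortex and 4.82% higher at the same threshold, 15.6% in all. The median LFC of the members was −0.22, against −0.0028 over all tested genes. The LFC of all 10 was below 0, as for 50.5% of all tested genes, whereas 9 of the 10 were below 0 with edgeR and 7 of the 10, with a median of −0.093, after LFC were corrected for gene length and GC content. No member was higher at an unadjusted p under 0.05 with limma, edgeR or DESeq2.

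Cacna1i (chr15:80287238-80398279), a T-type pore best known from thalamic and other neurons that fire in bursts, changed most. It had 6714, 6607 and 6541 normalized counts in WT cortex and 3119, 4067 and 3928 in SCA1 KI cortex. The 3 WT libraries lay within a narrow range and far above every SCA1 KI library, of which library A was the lowest. Its LFC was −0.85 ± 0.092 SE (adjusted p = 6.41e-05), and −0.73 without library A (adjusted p = 5.98e-05). Fits that each left out 1 of the 12 libraries called it in 12 of 12.

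Cacnb4 (chr2:52428320-52676831), the beta subunit whose loss causes ataxia and seizures in lethargic mice, had 20218, 23236 and 20404 normalized counts in WT cortex and 15045, 16106 and 13868 in SCA1 KI cortex. The groups did not overlap. Its LFC was −0.50 ± 0.096 SE (adjusted p = 0.00296), and −0.51 without library A (adjusted p = 0.00876). Cacna1a (chr8:84388440-84640246), the P/Q-type pore, whose human counterpart carries the CAG expansion of spinocerebellar ataxia type 6, had 11073, 10041 and 9183 normalized counts in WT cortex and 6711, 8103 and 7087 in SCA1 KI cortex. Again every SCA1 KI library lay below every WT library. Its LFC was −0.47 ± 0.11 SE (adjusted p = 0.00974), −0.41 without library A (adjusted p = 0.0374) and −0.26 with the length and GC correction (adjusted p = 0.0299, the highest of the settings that kept all libraries, of which the lowest was 5.41e-04). Libraries that did not overlap in the lower direction were found for these 3 members and for 18% of all tested genes.

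The other 7 members did not pass the threshold in the cortex. Cacna1e (chr1:154390731-154884501), the R-type pore, had an LFC equal in size to that of Cacna1a but more scattered libraries, at 11126, 8624 and 7982 normalized counts in WT and 5027, 8485 and 6744 in SCA1 KI. The groups overlapped in 1 library of each. Its LFC was −0.47 ± 0.16 SE (adjusted p = 0.0573). It passed without WT library D (LFC −0.57, adjusted p = 0.0431) or SCA1 KI library E (LFC −0.65, adjusted p = 0.00811), and also with DESeq2 (LFC −0.45) and with the length and GC correction (LFC −0.30), the adjusted p across the settings with all 12 libraries running from 0.0274 to 0.152. Without library A its LFC was −0.27 (adjusted p = 0.187).

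Cacna1g, the T-type pore of thalamic relay neurons and deep cerebellar nuclei, had an LFC of −0.24 ± 0.082 SE in the cortex (adjusted p = 0.0638). It passed without WT library D (LFC −0.30, adjusted p = 0.0327) and likewise without SCA1 KI library E (LFC −0.30, adjusted p = 0.0327), and with the length and GC correction its LFC was −0.024. Cacna1h (chr17:25374285-25433783), a T-type pore that sensory neurons also use, had 1958, 1669 and 1409 normalized counts in WT cortex and 1048, 1525 and 1869 in SCA1 KI cortex, with overlapping groups (LFC −0.21 ± 0.23 SE, adjusted p = 0.589). The N-type pore Cacna1b (chr2:24603887-24763152) had an LFC of −0.090 ± 0.086 SE (adjusted p = 0.528). The L-type pores Cacna1c (chr6:118587240-119196418; LFC −0.20 ± 0.14 SE, adjusted p = 0.358) and Cacna1d (chr14:30039939-30491455; LFC −0.013 ± 0.087 SE, adjusted p = 0.938) overlapped between the genotypes. Cacnb2 (chr2:14603088-14987908), the beta subunit best known from the heart, had an LFC of −0.13 ± 0.069 SE in the cortex (adjusted p = 0.233). Without library A the LFC of Cacna1c was −0.024, of Cacna1d 0.079 and of Cacna1h 0.021. In bulk tissue, fewer cells of a type and less RNA per cell cannot be told apart.

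**Figure D2:**
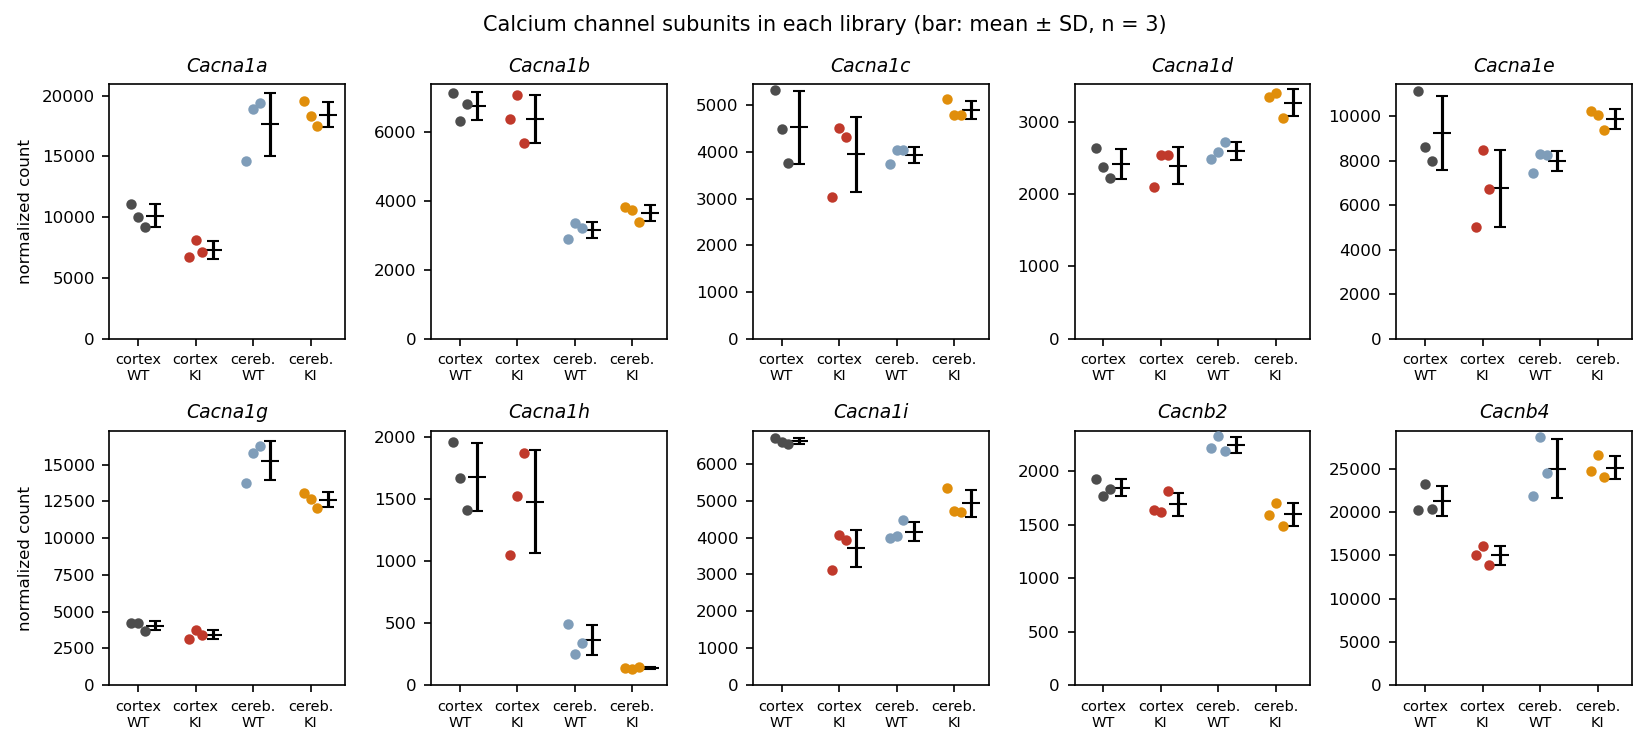
Normalized count (y axis, from 0, with its own scale in each panel) of the 10 genes in each of the 12 libraries, by group (x axis); points are libraries and bars the mean ± SD of 3. Cacna1i, Cacnb4 and Cacna1a are separated by genotype in the cortex, all lower in SCA1 KI (as are 18% of all tested genes). In the cerebellum, 3 are separated and lower in SCA1 KI, Cacna1g, Cacna1h and Cacnb2 (17.5% of all tested genes). Another 5 are separated and higher there, Cacna1b, Cacna1c, Cacna1d, Cacna1e and Cacna1i (14.3% of all tested genes). All 3 SCA1 KI cerebellum libraries of Cacna1h lie between 133 and 142.

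Markers of several cell types moved with genotype in the cortex. The summed level of 8 markers of cortical excitatory neurons, all in the table and none at 0 in all libraries of a cortex group, was 89180 to 91141 normalized counts in WT and 59907 to 70992 in SCA1 KI cortex, and 3 of the 8 were called lower. That of 7 forebrain interneuron markers was 45217 to 48010 in WT and 26969 to 34348 in SCA1 KI, with 2 called lower. Midbrain markers, of which Pou4f2 was at 0 in all WT cortex libraries, summed to 207 to 326 in WT and to 605 to 1286 in SCA1 KI, with 1 of 6 tested called higher (Tal1). Thalamus and habenula markers summed to 7654 to 8326 in WT and to 5636 to 6436 in SCA1 KI, with 1 of 8 tested called lower and 2 called higher. The genes called were Rora, Shox2 and Pou4f1 (Shox2 was at 0 in all WT cortex libraries). The sum thus fell although 2 of these genes rose. Astrocyte markers summed to 77492 to 90165 in WT and to 57757 to 66397 in SCA1 KI, with 3 of 5 called lower, and hippocampus markers to 7289 to 8157 and to 3453 to 4008, with 2 of 5 tested called lower. Lists named for cells of the cerebellum fell in the cortex as well. Purkinje cell markers summed to 45774 to 48677 in WT and to 25639 to 30414 in SCA1 KI cortex, with 4 of 7 called lower. Cerebellar interneuron markers summed to 4953 to 5265 and to 2054 to 2839, with 2 of 4 called lower. A summed list need not measure the cells it is named for. Of all tested genes, 10.8% were called lower and 4.82% higher. The part of these differences in the values of Cacna1i, Cacnb4 and Cacna1a was not tested.

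In SCA1 KI cerebellum, Cacna1h and Cacnb2 fell, to 37.7% and 71.0% of their mean WT count, and Cacna1d rose to 126% of it. In this comparison 4.44% of all tested genes were called lower and 0.917% higher, 5.36% in all. The median LFC of the members was 0.14, against −0.0049 over all tested genes, and 3 of the 10 LFC were below 0, against 51.3% of all tested genes. The SCA1 KI libraries were all higher than the WT libraries in 5 members (14.3% of all tested genes) and all lower in 3 (17.5% of them), so that 8 of the 10 did not overlap, against 31.8% of all tested genes. Cacna1a and Cacnb4 were the 2 whose libraries overlapped.

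Cacna1h had 491, 253 and 341 normalized counts in WT cerebellum libraries 2, 4 and 6 and 135, 133 and 142 in SCA1 KI libraries 1, 3 and 5. The WT libraries varied, library 2 being the highest, while the SCA1 KI libraries were nearly equal and lay below every WT library. Its LFC was −1.35 ± 0.23 SE (adjusted p = 0.00428) and −1.10 without library 2 (adjusted p = 0.0129), and it was called in 12 of 12 fits that left out 1 library. Deep cerebellar nuclei markers, 3 of 3 in the table and none at 0, moved with it. They summed to 10021, 4471 and 5889 in WT libraries 2, 4 and 6 and to between 2114 and 2541 in SCA1 KI, and 2 of the 3 were called lower, Slc17a6 (a vesicular glutamate transporter, LFC −1.91) and Lhx9 (a transcription factor, LFC −3.76). Midbrain markers, 7 of 7 in the table and none at 0 in all libraries of either group, summed to 1458 to 1720 in WT and to 781 to 1051 in SCA1 KI, with 4 of 6 tested called lower. Thalamus and habenula markers, 8 of 9 in the table, summed to 27835 to 29023 in WT and to 23907 to 25687 in SCA1 KI, with 4 of 8 called lower (Tcf7l2, Lef1, Shox2 and Pou4f1). The forebrain interneuron list also gave 53787 to 54800 in WT and 44317 to 46693 in SCA1 KI cerebellum, with 2 of 7 called lower, and astrocyte markers 158609 to 162824 and 126558 to 128863, with 1 of 5 called lower. Oligodendrocyte markers, 5 of 5 in the table and none at 0, summed to 250154, 163466 and 182095 in WT libraries 2, 4 and 6 and to 139174 to 139535 in SCA1 KI, with 0 of 5 called by limma and 4 of 5 at an unadjusted p under 0.05. Microglia markers summed to 2753, 1932 and 2093 in the same WT libraries and to 1757 to 1857 in SCA1 KI, with 1 of 5 called lower (P2ry12). Both sums had the same order over the WT libraries as Cacna1h, as had those of deep cerebellar nuclei, midbrain and oligodendrocyte precursor markers. An order of 3 libraries cannot tell these lists apart. The part of any marker list in the difference of Cacna1h was not tested.

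**Figure D3:**
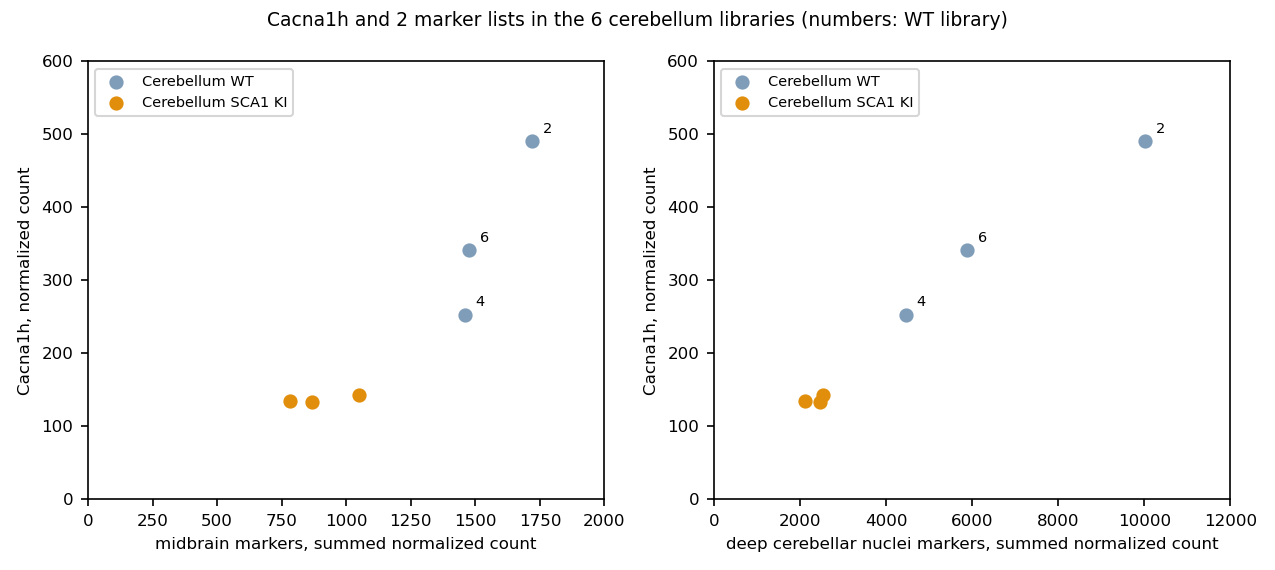
Normalized count of Cacna1h (y axis) against the summed normalized count of midbrain markers (left) and deep cerebellar nuclei markers (right) in the 6 cerebellum libraries; points are libraries, colours the genotypes, and numbers name the WT libraries. The SCA1 KI libraries sit together at 133 to 142 of Cacna1h with the lowest marker sums, and WT library 2 is highest on both axes.

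Cacnb2 had 2219, 2334 and 2189 normalized counts in WT cerebellum and 1592, 1707 and 1488 in SCA1 KI cerebellum, with tight groups far apart. Its LFC was −0.50 ± 0.069 SE (adjusted p = 0.00113), −0.50 without library 2 (adjusted p = 0.00361), and it was called in 12 of 12 fits that left out 1 library. Its exons overlap those of Gm10848, Gm10849 and Gm13269 on the opposite strand. Exons of Cacnb4 share 1433 bases with A430018G15Rik, those of Cacna1a 435 bases with Gm16183 and those of Cacna1h 158 bases with Tpsg1, also on the opposite strand. Whether the counting used strand is not given in the sources used here, so reads of these partners may be included. The ratio of Cacnb4 to Cacnb2 per kb was 16.4 ± 1.80 (SD, n = 3) in WT cerebellum and 23.3 ± 0.549 in SCA1 KI cerebellum, and 17.1 ± 2.06 in WT cortex and 13.2 ± 1.73 in SCA1 KI cortex. The ratio was 22.9 to 23.9 in SCA1 KI and 14.5 to 18.1 in WT cerebellum, and 11.3 to 14.7 in SCA1 KI and 15.5 to 19.4 in WT cortex, so the groups were apart in each region, in opposite directions.

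Cacna1d, the L-type pore that opens at the least depolarized voltages of its class, had 2483, 2586 and 2730 normalized counts in WT cerebellum and 3346, 3404 and 3063 in SCA1 KI cerebellum. The groups did not overlap, and the LFC was 0.33 ± 0.087 SE (adjusted p = 0.0436). The call rested on every cerebellum library and on some cortex libraries through the shared estimate of spread: without any 1 of cerebellum libraries 1 to 6, cortex WT library C or cortex SCA1 KI library E the LFC was 0.30 to 0.38 and the adjusted p 0.0506 to 0.169. Its exons share 589 bases with Chdh on the opposite strand.

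The pores Cacna1b, Cacna1c, Cacna1e and Cacna1i had higher counts in every SCA1 KI than in every WT cerebellum library and did not pass the threshold. Cacna1e had 7469, 8282 and 8243 normalized counts in WT and 10228, 10048 and 9386 in SCA1 KI (LFC 0.31 ± 0.16 SE, adjusted p = 0.351). Cacna1c had 3745, 4032 and 4029 in WT and 5127, 4784 and 4789 in SCA1 KI (LFC 0.32 ± 0.14 SE, adjusted p = 0.261). Both scattered more in the cortex than in the cerebellum, and with the cerebellum fitted on its own both were called higher (adjusted p = 0.0232 for Cacna1e and 0.0125 for Cacna1c), the adjusted p across the settings with all 12 libraries running from 0.0232 to 0.357 and from 0.0125 to 0.267. Cacna1b had an LFC of 0.21 ± 0.086 SE (adjusted p = 0.225). Cacna1i had 3985, 4041 and 4472 normalized counts in WT and 5350, 4734 and 4709 in SCA1 KI (LFC 0.24 ± 0.092 SE, adjusted p = 0.174), and was called with the length and GC correction (LFC 0.27, adjusted p = 0.00994, over a range of 0.00994 to 0.177 for the settings that kept all libraries).

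Cacna1g was the only pore besides Cacna1h with lower counts in every SCA1 KI library of the cerebellum, at 13742, 15797 and 16273 in WT and 13067, 12673 and 12070 in SCA1 KI (LFC −0.27 ± 0.082 SE, adjusted p = 0.0785). Without library 2, the lowest WT library, it was called (LFC −0.35, adjusted p = 0.0354), as it was with DESeq2 and with the length and GC correction, the adjusted p across the settings with all 12 libraries running from 0.0209 to 0.107. Cacna1a, whose channel Purkinje cells depend on, had 14651, 18902 and 19355 normalized counts in WT and 19530, 18302 and 17458 in SCA1 KI (LFC 0.073 ± 0.11 SE, adjusted p = 0.814), and an LFC of −0.055 without library 2. Cacnb4 had 21829, 28651 and 24568 in WT and 24706, 26637 and 24113 in SCA1 KI (LFC 0.015 ± 0.096 SE, adjusted p = 0.965). Purkinje cell markers, 7 of 7 in the table and none at 0, summed to 325054 to 406022 in WT and to 286893 to 323896 in SCA1 KI cerebellum, with 1 of 7 called lower, and the 6 granule cell markers summed to 113219 to 159010 in WT, library 2 being the lowest, and to 157596 to 160337 in SCA1 KI, with 0 of 6 called and none at an unadjusted p under 0.05. Their part in these values was not tested.

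**Figure D4:**
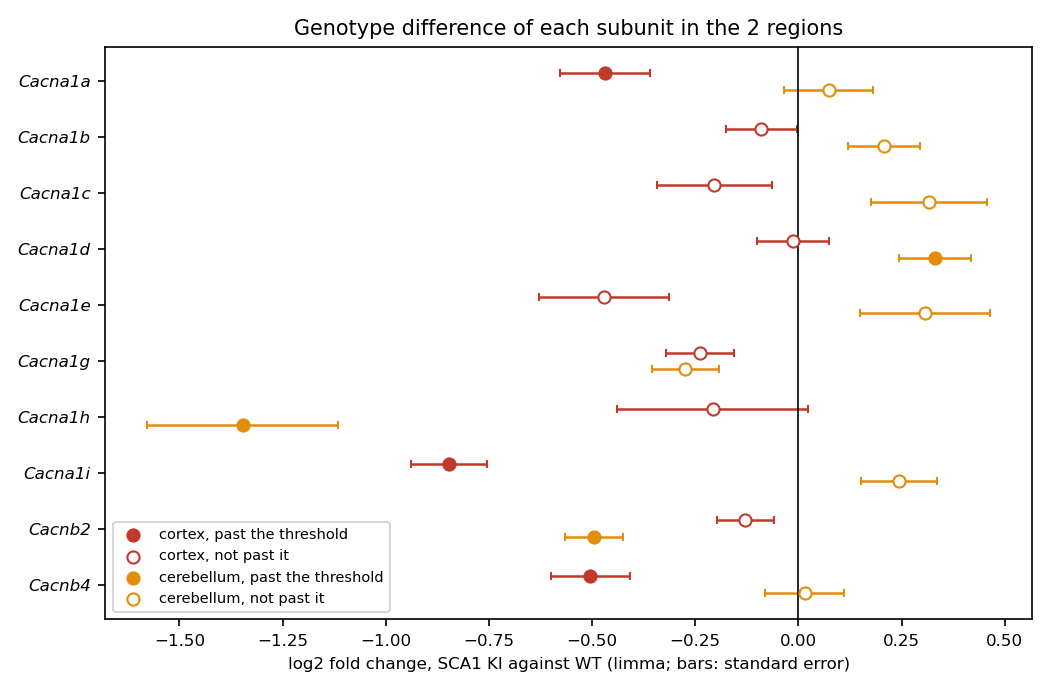
LFC of SCA1 KI against WT (x axis, log2) for the 10 genes (y axis) in the cortex and the cerebellum; points are limma estimates, bars standard errors, and filled points passed the threshold (adjusted p under 0.05, LFC beyond 0.25 in size). All 10 cortex estimates lie below 0 (9 with edgeR, and 7 with the length and GC correction), and 7 of the 10 cerebellum estimates lie above 0 (6 with that correction).

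The genotype difference itself differed between the regions for 4 of the 10 members (interaction term of limma, adjusted p under 0.05), as for 8.15% of all tested genes. For Cacna1i the LFC in the cortex minus that in the cerebellum was −1.09 ± 0.13 SE (adjusted p = 6.06e-04). For Cacna1a it was −0.54 ± 0.15 SE (adjusted p = 0.0475), for Cacnb4 −0.52 ± 0.14 SE (adjusted p = 0.0326) and for Cacnb2 0.37 ± 0.098 SE (adjusted p = 0.0367). Cacna1e (−0.78 ± 0.22 SE, adjusted p = 0.0501) and Cacna1h (1.14 ± 0.33 SE, adjusted p = 0.0502) narrowly missed the threshold. Of the 9 settings that kept all libraries, 5 called Cacna1e (adjusted p from 0.00803 to 0.0526) and 4 called Cacna1h (0.00287 to 0.0529). The difference of Cacna1i was called in 12 of 12 fits that left out 1 library, that of Cacnb4 in 5, and those of Cacna1a and Cacnb2 in 4 each. Without WT cerebellum library 2, 1 member was called, Cacna1i. Without cerebellum library 1 or 5 or cortex library C or F 1 member was called as well, and without cerebellum library 3 or 6 it was 2. For Cacna1d, whose cerebellar LFC passed and whose cortical LFC did not, the difference did not pass (−0.34 ± 0.12 SE, adjusted p = 0.116).

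Of the members called between the regions in both genotypes, only Cacna1i had its order reversed in SCA1 KI mice. Between SCA1 KI cortex and SCA1 KI cerebellum 7 members were lower in the cortex and 2 higher, where 30.5% of all tested genes were lower and 32% higher, 62.4% in all. This comparison shares its libraries with the 3 described above. Cacna1c, Cacna1d, Cacna1e and Cacnb4 were called lower here but not between the WT regions, where Cacnb4 had narrowly missed. For Cacna1c, Cacna1d and Cacna1e the interaction term did not pass (limma, adjusted p = 0.142, 0.116 and 0.0501). A shift with genotype is therefore not shown for these genes. Cacna1i, higher in the cortex in WT mice, was lower in the cortex in SCA1 KI mice (LFC −0.42 ± 0.092 SE, adjusted p = 0.00126). Cacna1h stood at an LFC of 3.39 ± 0.23 SE (adjusted p = 3.59e-08) and Cacna1a at −1.34 ± 0.11 SE (adjusted p = 1.91e-07). Cacnb2 no longer passed (LFC 0.083 ± 0.069 SE, adjusted p = 0.307), and Cacna1c passed narrowly (LFC −0.33 ± 0.14 SE, adjusted p = 0.05, and 0.0094 to 0.0515 across the settings with all 12 libraries). It no longer passed without library A (LFC −0.15, adjusted p = 0.240), without cortex WT library C (0.0643) or without any 1 of cerebellum libraries 1 to 6 (0.0563 to 0.127).

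The remaining subunits of the channel complex were examined as lists. Of 8 other subunits in the table, 5 were lower and none higher in SCA1 KI cortex, with a median LFC of −0.46 against −0.0028 over all tested genes, of which 10.8% were lower and 4.82% higher. All 8 LFC were below 0, as for 50.5% of all tested genes. The 3 not called were Cacna1s, Cacna2d2 and Cacng6 (limma, adjusted p = 0.633, 0.331 and 0.398). Of these, Cacna1s and Cacng6 had few counts, with means of 42.5 and 26.3 in WT cortex. Sign counts and medians of the lists with the length and GC correction are not given here. Cacnb3, a beta subunit often found with N-type channels, fell from 13572 ± 688 (SD, n = 3) to 9383 ± 272 normalized counts (LFC −0.53 ± 0.074 SE, adjusted p = 3.59e-04), and Cacnb1 fell from 6105 ± 456 to 4659 ± 519 (LFC −0.39 ± 0.12 SE, adjusted p = 0.0401). The alpha-2-delta subunits, which carry channels to the membrane, fell in 3 of 4 cases: Cacna2d3 from 4804 ± 303 to 3169 ± 461 (LFC −0.61, adjusted p = 5.56e-04), Cacna2d1 from 16354 ± 827 to 13299 ± 1200 (LFC −0.30, adjusted p = 0.0238) and Cacna2d4 from 97.2 ± 15.4 to 61.0 ± 4.81 (LFC −0.66, adjusted p = 0.0134). In SCA1 KI cerebellum 0 of the 8 were called by limma or edgeR, 1 by DESeq2, and 4 were lower at an unadjusted p under 0.05. Only Cacna2d3 among the 8 differed between the regions by limma's interaction term, which called 8.15% of all tested genes. DESeq2 called the interaction for 3 of the 8, and for 1755 of all 15369 genes tested.

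Of 6 TARP-type gamma subunits, which are relatives of the channel's gamma subunit and traffic AMPA receptors, 2 fell in the cortex and 1 in the cerebellum, where 10.8% and 4.44% of all tested genes were lower. Their median LFC were −0.069 and 0.039. Cacng3 fell in both, from 5229 ± 127 (SD, n = 3) to 3522 ± 386 normalized counts in the cortex (LFC −0.58, adjusted p = 0.00193) and from 342 ± 50.8 to 228 ± 1.38 in the cerebellum (LFC −0.57, adjusted p = 0.00546). Cacng2, the gene mutated in stargazer mice, fell in the cortex (LFC −0.39, adjusted p = 0.00262).

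Proteins that bind or tether the channels were called lower in SCA1 KI cortex in 8 of 15 cases and higher in 1. Their median LFC was −0.47, where 10.8% of all tested genes were lower and 4.82% higher. Bsn, a large active zone scaffold, fell from 27910 ± 2106 (SD, n = 3) to 14151 ± 2664 normalized counts (LFC −0.99 ± 0.12 SE, adjusted p = 1.79e-04), and Rims1, which links P/Q-type and N-type channels to vesicles, fell from 10851 ± 388 to 5668 ± 944 (LFC −0.95 ± 0.12 SE, adjusted p = 1.88e-04). Cabp1, a calmodulin relative that tunes channel inactivation, fell from 5858 ± 258 to 3061 ± 365 (LFC −0.94 ± 0.076 SE, adjusted p = 1.13e-05). Stac2, an adaptor of L-type channels, fell as well (LFC −0.84), as did Stac3 (LFC −0.97), Erc2 (LFC −0.50), Pclo (LFC −0.47) and Rimbp2 (LFC −0.46). Rem2, a small GTPase that inhibits calcium channels, rose from 121 ± 48.4 to 280 ± 16.9 (LFC 1.27 ± 0.23 SE, adjusted p = 0.00239). In SCA1 KI cerebellum 4 of the 15 were lower by limma (3 by edgeR and 5 by DESeq2), with a median LFC of −0.033. There 4.44% of all tested genes were lower and 0.917% higher. None was called higher by limma, edgeR or DESeq2, and 2, 3 and 3 were higher at an unadjusted p under 0.05. Those lower by limma were Rimbp2 (LFC −0.87), Stac (LFC −0.86), Stac2 (LFC −0.85) and Cabp1 (LFC −0.28). The LFC of Bsn there was −0.033 and that of Rims1 0.090. The LFC in the cortex minus that in the cerebellum was −0.96 for Bsn and −1.04 for Rims1, and both passed by limma's interaction term. It passed below 0 for 5 of the 15, the others being Rims2, Cabp1 and Pclo. It passed above 0 for 1, Stac (1.35). Of all tested genes, 8.15% passed in either direction.

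**Figure D5:**
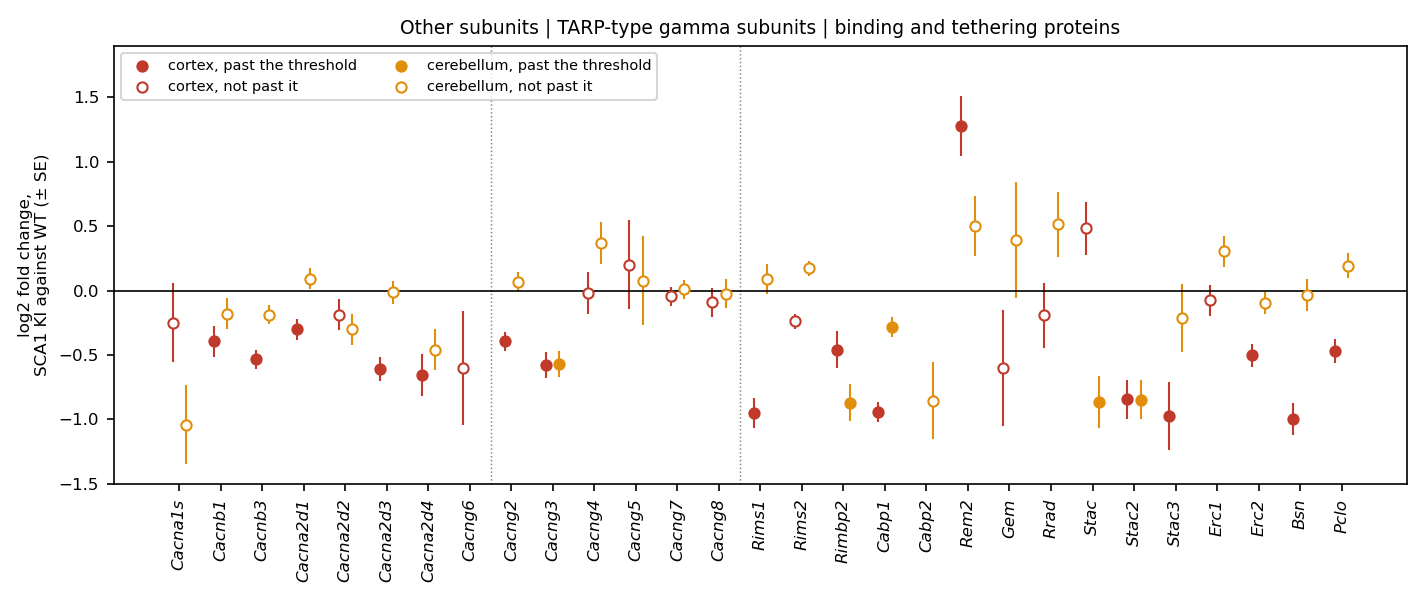
LFC of SCA1 KI against WT (y axis, log2, bars standard errors) in the cortex and the cerebellum for the other subunits, the TARP-type gamma subunits and the binding or tethering proteins (x axis, separated by dotted lines); filled points passed the threshold, and no point is drawn where both groups had under 3 normalized counts. In the cortex 15 of the 29 genes passed below 0 and Rem2 above it, against 10.8% and 4.82% of all tested genes. By list, 5 of 8, 2 of 6 and 8 of 15 passed below 0. In the cerebellum 5 passed, all below 0 (0, 1 and 4 by list). There 4.44% of all tested genes passed below 0 and 0.917% above it.

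The genes whose pattern was most like each member were named by Pearson's r over the 12 libraries, after the mean of each region was removed, as a description. For Cacna1i they were Ube3b (r = 0.984), Gpd1 (0.977) and Ctnnd2 (0.973). For Cacna1a they were Rhpn1 (0.979), Madd (0.976) and Zmiz1 (0.974), and for Cacnb4 Scd3 (0.972), Gabrb2 (0.967) and Rtn4rl1 (0.967). Cacna1h was most like Bcl11b (0.982), Shisa9 (0.982) and Zfhx3 (0.980), and Cacnb2 most like Kcnh3 (0.941), Igfbp5 (0.941) and Kcnip1 (0.932). Cacna1e was most like Arid1b (0.980), Ncoa1 (0.978) and Cdk12 (0.977), and Cacna1c most like Dido1 (0.972), Baz2a (0.971) and Tnks (0.970). Cacna1d was most like C030046E11Rik (0.948), Maml1 (0.945) and Smad4 (0.944), Cacna1b most like Scyl2 (0.942), Ncoa6 (0.924) and Ncstn (0.910), and Cacna1g most like Trim9 (0.963), Zdhhc14 (0.962) and Pde9a (0.954). Among the 10 members themselves, the correlation was highest between Cacna1c and Cacna1e (r = 0.917) and lowest between Cacna1b and Cacna1h (r = −0.652).

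Promoter windows of 300 bases from RefSeq (GRCm38.p6) were searched on both strands for TGAATGAA and TGAATGGA, the octamers bound by Capicua, a repressor that forms a complex with ataxin-1. There were 13 windows for 7 of the members, and none held either octamer. Of 32851 windows of all genes, 2.47% held at least 1, so 0 of 13 does not set the members apart. No window was given for Cacna1a, Cacna1g and Cacna1h.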

How the data were processed

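Poly-adenylated RNA of 12 libraries (cortex and cerebellum, WT and SCA1 KI, 3 each) was measured. The authors aligned reads with STAR to mm10, counted them with featureCounts and deposited DESeq2-normalized counts per gene, a signal in which the reads of a library are divided by its size factor. In every library 100% of values were whole multiples of 1 read (tolerance 0.01 reads), so reads were recovered. Columns name the group and a library letter or number, not the replicate of the labels. limma 3.58.1 (R 4.3.3) was fitted to log2(normalized count + 1) of 15369 genes with a mean of at least 10, with 4 group means and p-values adjusted by Benjamini-Hochberg; folds of low genes are understated. p-values measure the spread between the libraries, which are described as biological replicates. edgeR 4.0.16 and DESeq2 1.42.0 on recovered reads, pseudocounts, filters, centring, length and GC, regions on their own and left-out libraries were alternatives. Lengths, exons and pore sequences are from GENCODE vM21, in which 95.1% of symbols matched 1 gene. The pore stretches were found by motif in the longest open frame. All members were named, plus called genes of 3 lists and the 3 most similar genes of each member; members and lists were chosen with earlier results of these data known. Scripts were tested on simulated data.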

Additional observations from a re-analysis of the deposited data

Results flagged for a closer look

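The genotype difference differed between cortex and cerebellum for 4 members by the interaction term of limma. The LFC in the cortex minus that in the cerebellum was −1.09 for Cacna1i (adjusted p = 6.06e-04), −0.54 for Cacna1a (adjusted p = 0.0475), −0.52 for Cacnb4 (adjusted p = 0.0326) and 0.37 for Cacnb2 (adjusted p = 0.0367). In Cacna1i all 3 SCA1 KI libraries lay below the WT libraries in the cortex and above them in the cerebellum.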

How the results depend on the processing

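No paired analysis was possible because the columns of the table carry no replicate number of the labels. Of the LFC of the 10 members in 5 comparisons under all alternatives, 980 kept their direction and their side of the threshold, 46 lost and 30 gained a call, and 14 changed sign, none of them past the threshold before or after. Correcting for length and GC content turned the cortical LFC of Cacna1b to 0.082, of Cacna1d to 0.12 and of Cacna1h to 0.017 and the cerebellar LFC of Cacnb4 to −0.054, and edgeR gave 0.0058 for Cacna1d in the cortex. The number of members higher in SCA1 KI cerebellum went from 1 to 3 with that correction and to 3 with each region fitted on its own. The interaction of Cacna1a missed the threshold with edgeR (adjusted p = 0.0524) and with the correction (0.0575), over a range of 0.0132 to 0.0575, and that of Cacnb4 missed it with the correction (0.0555), over a range of 0.00584 to 0.0555. The cause was not tested. Leaving out 1 library gave 3 to 5 members lower in SCA1 KI cortex (5 without WT library D or SCA1 KI library E), 0 to 1 higher in SCA1 KI cerebellum and 1 to 5 with an interaction. LFC that changed sign ranged from −0.055 to 0.15 (Cacna1a, cerebellum), −0.071 to 0.079 (Cacna1d, cortex), −0.40 to 0.021 (Cacna1h, cortex), −0.078 to 0.12 (Cacnb4, cerebellum) and −0.029 to 0.11 (Cacna1g, interaction). Per kb of the longest transcript in place of all exons, the shares of P/Q, N, L, R and T types were 28.0%, 15.4%, 13.0%, 13.6% and 30.0% in WT cortex, 26.05%, 18.6%, 15.4%, 12.6% and 27.3% in SCA1 KI cortex, 37.3%, 5.47%, 9.59%, 9.04% and 38.6% in WT cerebellum, and 38.1%, 6.14%, 11.7%, 10.9% and 33.2% in SCA1 KI cerebellum, so that in SCA1 KI cerebellum the P/Q class and not the T class was largest. Without the limit on the LFC, 2672 genes in place of 2402 were called in SCA1 KI cortex and 843 in place of 824 in SCA1 KI cerebellum.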
